A study of Mus musculus with 9 samples.

Results

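Expression of 10 matricellular and fibrosis-linked matrix genes (Tnc, Postn, Thbs1, Thbs2, Fn1, Spp1, Ccn1, Ccn2, Cthrc1 and Spon2) was followed in cultured mouse cardiac fibroblasts after knockdown of Gata4 or Tbx20. The genes were taken by symbol from the Ensembl IDs of the count table. That rule uses no measured value, but the members were chosen with earlier results of these data known. All 10 were found among the 38924 genes of the table, and all 10 passed the filter on low counts in each comparison. Spp1 rose in Gata4 KD against control, Spp1 and Tnc were both higher in Gata4 KD than in Tbx20 KD, and no member passed the test in Tbx20 KD against control.

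Primary fibroblasts came from the hearts of adult male mice 8 to 10 weeks old, of the genotype Cas9GFP (RosaCas9-EGFP) on a C57BL/6 background. After 3 days of culture the CD45-CD31-CD90+ cells were sorted and plated again, and 6 days later, at 80 to 90% confluency, guide RNAs were brought in with a lipid reagent. Control cells received scrambled guides, Gata4 KD cells 2 guides against Gata4 and Tbx20 KD cells 2 guides against Tbx20, so that all 3 groups shared Cas9, EGFP and the transfection. Each group has 3 libraries, lettered a to c. Cas9 is present in every cell of these cultures, but only cells that took up a guide can be cut, so each knockdown library mixes edited and unedited cells. The study calls the libraries of a group biological replicates, while no label ties a library to an animal, a culture or a batch, so p-values measure the spread between these libraries.

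Matricellular proteins are secreted into the matrix but serve less as building material than as signals between matrix and cell. They bind integrins, growth factors and collagen, are scarce in most healthy adult tissue and are made in quantity during development and after injury. In the heart, activated fibroblasts are a main source of tenascin-C, periostin, thrombospondins and CCN proteins, which are widely used as signs of scar formation. Gata4 and Tbx20 are DNA-binding transcription factors needed for heart development, the first a zinc finger protein and the second a T-box protein.

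The guides are shown because they define the groups. Their sequences were given with the study, and their positions come from matching them to GENCODE M21 transcripts of the mouse build GRCm38. Each is written 5′ to 3′ with the 3 genomic bases that follow it, the PAM that Cas9 requires, in capitals. Gata4_sgRNA1 matches the minus strand at chr14:63204711-63204730 in exon 3 of 7 of Gata4-201 and Gata4_sgRNA3 the plus strand at chr14:63240581-63240600 in exon 2. Tbx20_sgRNA2 matches the minus strand at chr9:24770708-24770727 in exon 2 of 8 of Tbx20-201 and Tbx20_sgRNA3 the plus strand at chr9:24765732-24765751 in exon 4. All 4 sites lie in coding sequence.
Gata4_sgRNA1: cagagagtgtgtcaattgtgGGG
Gata4_sgRNA3: gcaggactgggctgtcgaagGGG
Tbx20_sgRNA2: caaattccatgaactgggcaCGG
Tbx20_sgRNA3: gagctgctcgccagtaaaggGGG

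Transcripts of both targets were lower in the cells that received their guides. Levels within a gene are given as CPM, counts scaled to library size with TMM factors over all 9 libraries. Gata4 stood at 164, 156 and 166 CPM in control a, b and c, at 53.7, 47.2 and 65.2 CPM in Gata4 KD and at 178, 192 and 199 CPM in Tbx20 KD. Its log2 fold change in Gata4 KD against control was -1.55 (SE 0.12, adjusted p = 0.00272). Tbx20 stood at 1001, 1288 and 714 CPM in control, at 670, 518 and 904 CPM in Gata4 KD and at 321, 427 and 429 CPM in Tbx20 KD. Its log2 fold change in Tbx20 KD was -1.35 (SE 0.21). The 3 Tbx20 KD libraries lay below all controls, but with an adjusted p of 0.748 the quasi-likelihood test did not call it, and over the alternatives its adjusted p ran from 3.18e-08 to 1. Tbx20 varied more between control libraries (CV 28.6%) than Gata4 did (CV 3.21%).

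Total counts ranged from 31214828 to 41950397 per library, and the lowest count of a member in any library was 1465, for Cthrc1. Libraries of a group differed by more than sampling noise (chi-square per degree of freedom 6.20 to 65.0 between pairs), so none was treated as a repeat of another. The 11 fibroblast markers fixed for the check all had a mean above 1 CPM, with Col1a1 the highest at 3689 CPM. Ptprc (CD45) stayed at 1.64 to 3.14 CPM and Pecam1 (CD31) at 3.05 to 9.31 CPM in all 9 libraries, against 75.0 to 110 CPM of Thy1 (CD90).

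Together the 10 genes took 1.91 to 1.99% of all counts in control, 2.16 to 2.31% in Gata4 KD and 1.71 to 1.89% in Tbx20 KD, without overlap between the groups. The largest parts of this sum were Thbs1 and Fn1 (means of 7766 and 6317 CPM in control), against 53.3 CPM of Spp1. For Thbs1 and Fn1 each knockdown overlapped with control, and the sum says little about the smaller members. Compared per length, as RPKM in control, Thbs1 was the highest at 1279 ± 46.7 RPKM (SD, n = 3), and only 7 of 14532 genes with a value stood above it. Fn1 (541 ± 44.0 RPKM) and Ccn2 (463 ± 70.0 RPKM) followed and overlapped between libraries, as did Ccn1 (275 ± 50.5 RPKM) and Tnc (256 ± 24.3 RPKM) below them. Postn, at 119 ± 22.7 RPKM, stood apart from its neighbours in this order. Spon2 (54.1 ± 8.69 RPKM), Cthrc1 (51.0 ± 9.30 RPKM) and Thbs2 (43.8 ± 4.90 RPKM) overlapped each with the next, and Spp1 was lowest at 32.4 ± 2.10 RPKM. Even Spp1 exceeded 89.2% of the genes on this scale.

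**Figure D1:**
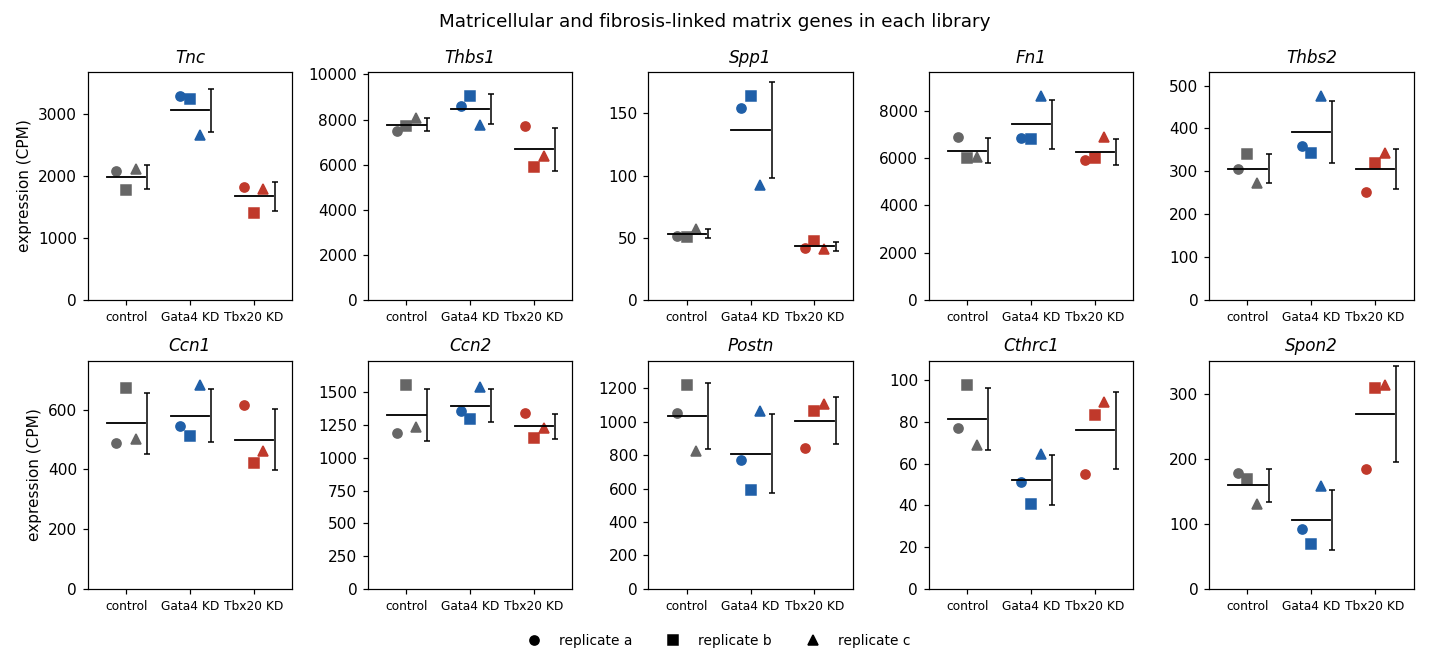
CPM of each of the 10 genes in the 9 libraries (y axis, linear, starting at 0), by group on the x axis. Each point is 1 library with its replicate letter as the symbol, the horizontal bar is the group mean and the error bar the SD of 3 libraries. The 3 Gata4 KD libraries lie above the other 6 for Tnc and Spp1, and the 3 Tbx20 KD libraries above the other 6 for Spon2.

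Gata4 KD was compared with control to ask which of these genes respond to loss of Gata4 transcript. Of the 10 genes 1 passed an adjusted p of 0.05, Spp1, which rose 2.56-fold; over all 14468 genes tested, 0.38% passed. At an unadjusted p of 0.05 there were 4, Spp1, Tnc and Thbs2 higher and Cthrc1 lower (8.54% of all genes). The same 4 were the members whose 3 libraries did not overlap with the 3 controls (14% of all genes). Of the 10 genes 7 had a higher and 3 a lower mean, and their median log2 fold change was 0.10 against -0.02 over all genes tested. The libraries are bulk RNA, so fewer cells with a transcript and less of it per cell cannot be told apart.

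Tbx20 KD was compared with the same controls. No member passed the adjusted threshold in edgeR's quasi-likelihood test, and none did in DESeq2, edgeR's exact test or limma-voom; over all 14547 genes 0.00687% passed, which is 1 gene, Mmp13, a collagenase named here after its values were seen. At an unadjusted p of 0.05 there were 2, Spp1 lower and Spon2 higher (2.69% of all genes), and these 2 were also the members without overlap (6.96% of all genes). Only Spon2 had a higher mean than control, and the median log2 fold change of the members was -0.09 against 0.00 over all genes.

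Gata4 KD was also set directly against Tbx20 KD, a comparison without any control library. Here 2 members passed, Spp1 and Tnc, both higher in Gata4 KD (1.44% of 14477 genes passed). Of the 208 genes past the threshold 118 were higher in Gata4 KD under TMM scaling, and 90 of 202 when libraries were scaled by total count alone; both scalings called Spp1 and Tnc higher. At an unadjusted p of 0.05 there were 6 members, Tnc, Thbs1, Thbs2 and Spp1 higher and Cthrc1 and Spon2 lower (16.7% of all genes). Without overlap were Tnc, Thbs1 and Spp1, higher, and Spon2, lower (23.1% of all genes). The members' median log2 fold change was 0.23 against -0.01 over all genes.

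**Figure D2:**
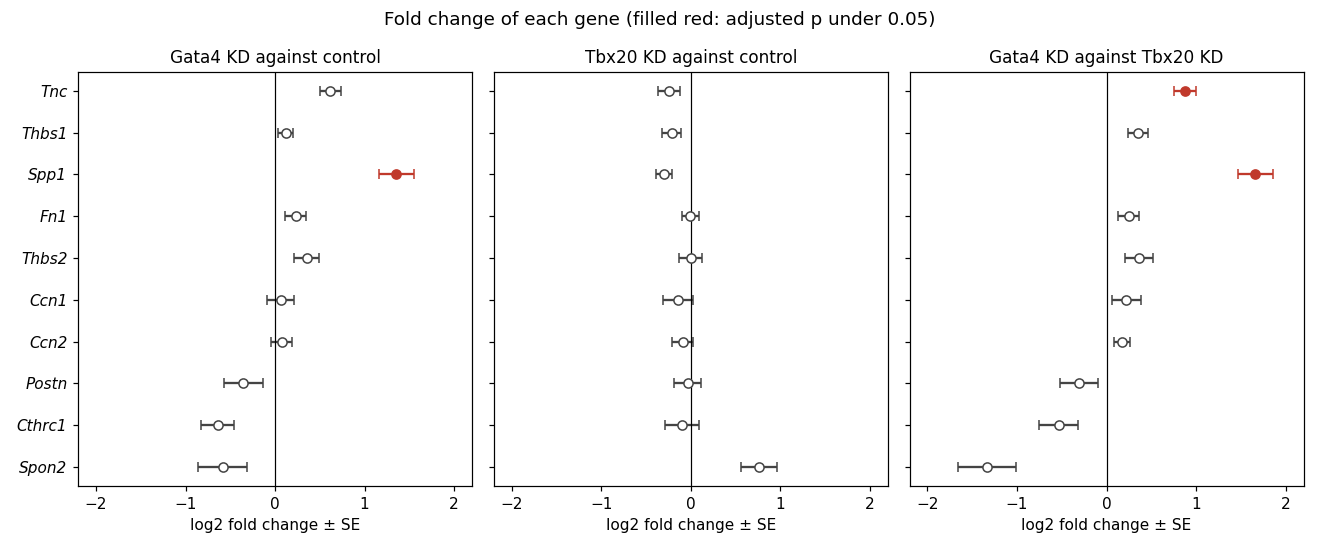
Log2 fold change with its SE (x axis) of each of the 10 genes (y axis) in the 3 comparisons, 1 panel each, from edgeR's quasi-likelihood fit to 3 libraries a group. Filled red points mark an adjusted p under 0.05: Spp1 in Gata4 KD against control, and Spp1 and Tnc in Gata4 KD against Tbx20 KD.

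The first role is that of integrin ligands, Spp1 and Fn1. Spp1 encodes osteopontin, a secreted phosphoprotein that binds integrins and CD44 and draws in immune cells after injury. Spp1 stood at 51.8, 50.9 and 57.3 CPM in control a, b and c, at 154, 164 and 92.6 CPM in Gata4 KD and at 41.5, 47.4 and 41.0 CPM in Tbx20 KD. The groups did not overlap, and Gata4 KD a and b lay well above Gata4 KD c, which still exceeded every control. Set against control, Spp1 in Gata4 KD was higher by 1.36 on the log2 scale (SE 0.19, adjusted p = 0.0348). Against Tbx20 KD it was 1.66 (SE 0.20, adjusted p = 0.0152), a 3.17-fold difference. In Tbx20 KD against control it was -0.30 (SE 0.09, unadjusted p = 0.00972, adjusted p = 0.9997).

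The call for Spp1 against control did not hold with every library left out in turn. It was kept without control b (adjusted p = 0.0451) and without Gata4 KD c (0.00259), and lost without control a (0.212), control c (0.101), Gata4 KD a (0.190) or Gata4 KD b (0.134), while the log2 fold change stayed between 1.22 and 1.59. Against Tbx20 KD the call was lost without Gata4 KD a (adjusted p = 0.0934), Tbx20 KD b (0.0871) or Tbx20 KD c (0.110), with log2 fold changes of 1.52 to 1.87. Over all alternatives the adjusted p ran from 1.07e-09 to 0.220 against control and from 3.12e-16 to 0.110 against Tbx20 KD. Of the 75 base windows of Spp1 transcripts 8.55% also occur in the predicted gene Gm42793, while the other 9 members shared none with another gene.

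Osteopontin is made by macrophages as well as by fibroblasts, so macrophage markers are given beside it. Of 15 macrophage markers all had counts and 14 had a mean above 1 CPM, and their summed level was 57.8 to 65.1 CPM in control, 32.7 to 58.3 CPM in Gata4 KD and 53.0 to 83.8 CPM in Tbx20 KD. Of the 14 tested 12 had a lower and 2 a higher mean in Gata4 KD than in control, none past the threshold. At an unadjusted p of 0.05 there was 1 (8.54% of all genes). In DESeq2, which called 273 of the 14468 genes tested, 1 passed, and 0 did in the exact test and limma-voom. The part of these markers in the level of Spp1 was not tested.

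Fn1 encodes fibronectin, the adhesive glycoprotein on which other matrix proteins are assembled. Fn1 stood at 6910.5, 5999 and 6042 CPM in control, at 6870.0, 6800.2 and 8614 CPM in Gata4 KD and at 5909, 6015 and 6911 CPM in Tbx20 KD. The groups overlapped, and Gata4 KD c held the highest value. For Fn1 the log2 fold change was 0.23 (SE 0.12, adjusted p = 0.674) in Gata4 KD against control, 0.00 (SE 0.10, adjusted p = 0.9997) in Tbx20 KD against control and 0.25 (SE 0.11, adjusted p = 0.334) between the knockdowns.

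Tnc encodes tenascin-C, a large hexameric glycoprotein that appears at wound edges and loosens cell adhesion. Tnc stood at 2080.1, 1773 and 2118 CPM in control, at 3291, 3245 and 2662 CPM in Gata4 KD and at 1832, 1405 and 1789.7 CPM in Tbx20 KD. Every Gata4 KD library exceeded all other libraries, with Gata4 KD c the lowest of the 3, and Tbx20 KD a and c overlapped with control b. Between the knockdowns the log2 fold change was 0.87 (SE 0.12, adjusted p = 0.0242), or 1.83-fold. Against control it was 0.62 (SE 0.11, adjusted p = 0.0888) in Gata4 KD, 1.53-fold, and -0.24 (SE 0.12, adjusted p = 0.9997) in Tbx20 KD.

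The test of Tnc in Gata4 KD against control lay near the threshold. Its adjusted p was 6.77e-05 in DESeq2, 0.0006 in edgeR's exact test, 0.0289 with no filter on low counts and 0.0402 without Gata4 KD c, and over all alternatives it reached 0.423. Between the knockdowns the call was lost without Gata4 KD a (adjusted p = 0.121), Gata4 KD b (0.0832), Tbx20 KD b (0.0858) or Tbx20 KD c (0.118), with log2 fold changes of 0.76 to 0.96 and adjusted p from 4.61e-10 to 0.121 over all alternatives.

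Thbs1 and Thbs2 encode thrombospondins, trimeric matricellular proteins that restrain vessel growth, and thrombospondin-1 is a known activator of latent TGF-beta. Thbs1 stood at 7507, 7723 and 8069 CPM in control, at 8621, 9032 and 7749 CPM in Gata4 KD and at 7734, 5890.4 and 6398 CPM in Tbx20 KD. Gata4 KD and Tbx20 KD did not overlap with each other, but both overlapped with control. The log2 fold change between the knockdowns was 0.35 (SE 0.11, adjusted p = 0.185), which passed only in DESeq2 (adjusted p = 0.0361) among the alternatives, whose adjusted p reached 0.484. Against control it was 0.12 (SE 0.09, adjusted p = 0.779) in Gata4 KD and -0.21 (SE 0.11, adjusted p = 0.9997) in Tbx20 KD.

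Thbs2 stood at 306, 341 and 273 CPM in control, at 359, 342 and 475 CPM in Gata4 KD and at 253, 320.5 and 343.5 CPM in Tbx20 KD. Gata4 KD lay above control in all 3 libraries, but Gata4 KD b exceeded control b by little, and Gata4 KD c was the highest of all. For Thbs2 the log2 fold change was 0.35 (SE 0.14, unadjusted p = 0.0353, adjusted p = 0.530) in Gata4 KD against control, 0.00 (SE 0.13, adjusted p = 0.9997) in Tbx20 KD against control and 0.36 (SE 0.16, adjusted p = 0.298) between the knockdowns.

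Ccn1 and Ccn2 encode CYR61 and CTGF, CCN proteins that bind integrins and heparan sulfate and are classic transcriptional targets of the mechanosensitive factors YAP and TEAD. Ccn1 stood at 489, 672.5 and 504 CPM in control, at 546, 513 and 683 CPM in Gata4 KD and at 617, 423 and 461 CPM in Tbx20 KD. Ccn2 stood at 1189, 1555 and 1232 CPM in control, at 1360.1, 1294 and 1539 CPM in Gata4 KD and at 1339, 1150.4 and 1229.9 CPM in Tbx20 KD. For both genes all groups overlapped, and the highest library of each group was the same: control b, Gata4 KD c and Tbx20 KD a. No comparison passed, with log2 fold changes of 0.06 (SE 0.15, adjusted p = 0.940) for Ccn1 and 0.07 (SE 0.12, adjusted p = 0.908) for Ccn2 in Gata4 KD against control. In Tbx20 KD against control they were -0.15 (SE 0.17, adjusted p = 0.9997) and -0.09 (SE 0.12, adjusted p = 0.9997), and between the knockdowns 0.22 (SE 0.16, adjusted p = 0.535) and 0.18 (SE 0.09, adjusted p = 0.366).

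Postn, Cthrc1 and Spon2 were the members with a lower mean in Gata4 KD than in control. Postn encodes periostin, which cross-links collagen and marks activated fibroblasts in the injured heart. Postn stood at 1053, 1219.9 and 826.5 CPM in control, at 769.8, 594 and 1063 CPM in Gata4 KD and at 845, 1067 and 1105 CPM in Tbx20 KD. Gata4 KD a and b lay below every control and Gata4 KD c within their range. For Postn the log2 fold change was -0.35 (SE 0.21, adjusted p = 0.731) in Gata4 KD, -0.03 (SE 0.15, adjusted p = 0.9997) in Tbx20 KD and -0.31 (SE 0.21, adjusted p = 0.494) between the knockdowns.

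Cthrc1 encodes a secreted glycoprotein with a short collagen repeat that is induced in injured arteries and in scar-forming fibroblasts. Cthrc1 stood at 77.3, 97.7 and 68.9 CPM in control, at 51.3, 40.7 and 64.6 CPM in Gata4 KD and at 55.1, 83.2 and 89.6 CPM in Tbx20 KD. All Gata4 KD libraries lay below all controls, and Tbx20 KD spanned both. For Cthrc1 the log2 fold change was -0.64 (SE 0.18, unadjusted p = 0.0073, adjusted p = 0.288) in Gata4 KD against control, with adjusted p from 0.0453, in DESeq2, to 0.786 over the alternatives. It was -0.09 (SE 0.19, adjusted p = 0.9997) in Tbx20 KD and -0.54 (SE 0.22, adjusted p = 0.275) between the knockdowns.

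Spon2 encodes spondin-2, a secreted matrix protein that binds integrins and bacterial surfaces. The study named Spon2, on these same libraries, among genes moved in opposite ways by the knockdowns, so its pattern here is not independent evidence. Spon2 stood at 179, 169 and 130.4 CPM in control, at 92.1, 68.7 and 158 CPM in Gata4 KD and at 185, 309 and 314 CPM in Tbx20 KD. All Tbx20 KD libraries exceeded all others, but Tbx20 KD a only just exceeded control a, and Gata4 KD c lay within the controls.

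The log2 fold change of Spon2 was 0.76 (SE 0.20, unadjusted p = 0.00547, adjusted p = 0.9997) in Tbx20 KD against control and -0.59 (SE 0.28, adjusted p = 0.641) in Gata4 KD against control. Between the knockdowns it was -1.34 (SE 0.33, unadjusted p = 0.00416, adjusted p = 0.106), a 2.52-fold difference. That comparison passed in DESeq2 (adjusted p = 0.037), in edgeR's exact test (0.00265), with no filter on low counts (0.0431) and without Gata4 KD c (0.0127), and reached 0.346 over the alternatives.

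**Figure D3:**
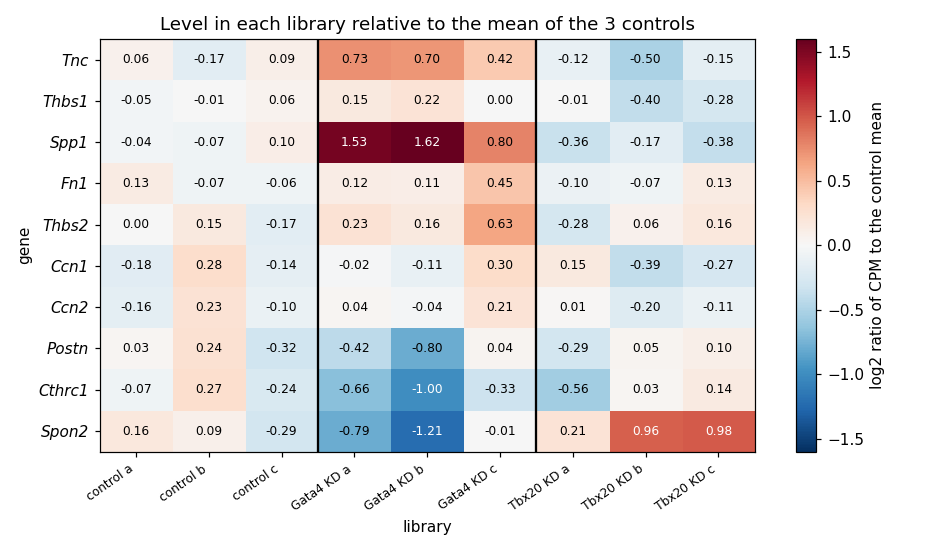
Log2 ratio of the CPM in each library (x axis, 9 libraries in 3 groups) to the mean of the 3 controls, for the 10 genes (y axis), as a colour with the ratio printed. Spp1 reaches 1.53 and 1.62 in Gata4 KD a and b but 0.80 in Gata4 KD c, and Spon2 0.96 and 0.98 in Tbx20 KD b and c but 0.21 in Tbx20 KD a.

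Within a group the libraries differed in a way that several members shared. Postn, Thbs2 and Cthrc1 ran from low to high in the same library order as Tbx20 in each of the 3 groups (control c, a, b; Gata4 KD b, a, c; Tbx20 KD a, b, c). Deviations from the group means correlated with those of Tbx20 at r = 0.98 for Postn, 0.92 for Cthrc1 and 0.91 for Thbs2, over 9 libraries. It was 0.87 for Spon2, and -0.72 and -0.70 for Tnc and Thbs1. With deviations of Gata4 the r was 0.86 for Spon2, 0.81 for Fn1, 0.75 for Postn, 0.72 for Thbs2 and -0.81 for Spp1. Removal of the 3 group means leaves fewer degrees of freedom than 9 libraries have, so a high r is easier to reach. The collagen gene Col3a1, a fibroblast marker, followed the same library order in all 3 groups, so this order was not particular to Tbx20. How many of all genes follow this order is not given. Col3a1 and the targets were set beside the members after their values had been seen, and all these values share libraries and library totals.

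Likeness among the members is given as Pearson r of log2 CPM over the 9 libraries, a description without a test. Of 45 pairs 8 had r above 0.70, and 10 did once group means were removed. Ccn1 and Ccn2 were the closest pair, with r = 0.95 (Spearman 0.95, and 0.87 without the 2 libraries farthest from the median of Ccn1), and 0.94 after removal of group means. Postn and Cthrc1 had r = 0.93 (Spearman 0.92, 0.80 without 2 libraries), and 0.93 within groups. Tnc and Spp1 had r = 0.93 (Spearman 0.85, 0.78 without 2 libraries) but only 0.42 within groups, so much of their likeness lay between the groups. Thbs2 showed the reverse: its r with Postn was 0.20 and with Cthrc1 0.00 over the libraries, but 0.94 and 0.96 within groups. The most opposed pair was Thbs1 and Spon2, with r = -0.95 (Spearman -0.93, -0.99 without 2 libraries) and -0.88 within groups.

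**Figure D4:**
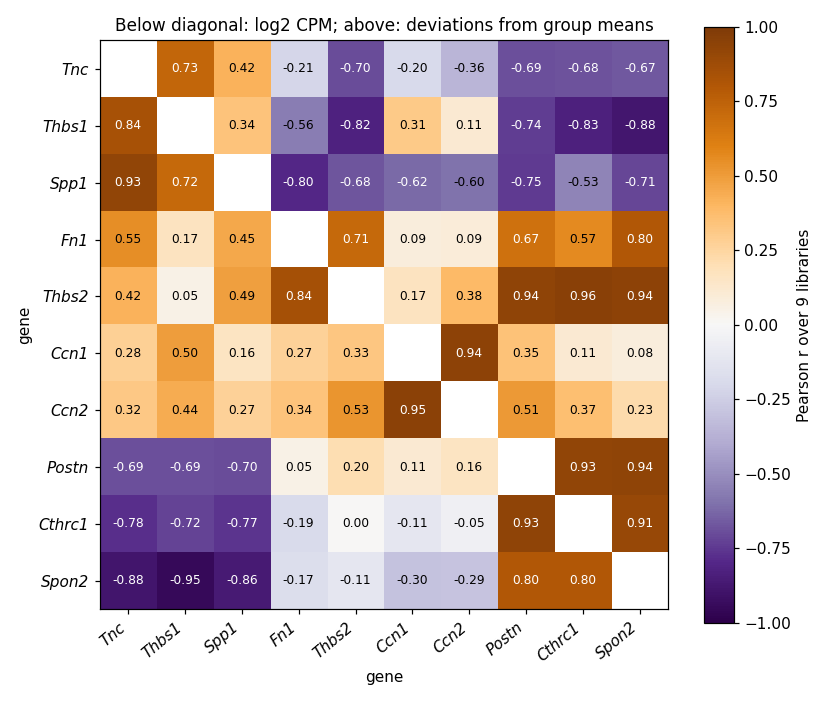
Pearson r over 9 libraries for each pair of the 10 genes (both axes), from log2 CPM below the diagonal and from deviations from the group means above it. Ccn1 with Ccn2 is high below and above the diagonal (0.95 and 0.94), Tnc with Spp1 only below (0.93 and 0.42) and Thbs2 with Cthrc1 only above (0.00 and 0.96).

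Among 10072 genes with a mean of at least 5 CPM, the 2 most like each member were listed by the same r. For Ccn1 these were Fos (r = 0.98) and Ier2 (r = 0.97), immediate early genes that growth factors induce within minutes, and for Ccn2 they were Ccn1 and Fos (r = 0.93). Fos was highest in the libraries that led for both CCN genes, at 9.92 CPM in control b, 11.4 CPM in Gata4 KD c and 7.38 CPM in Tbx20 KD a, against 2.58 to 5.67 CPM in the other 6. Since Fos was picked by its r over these same libraries, that match is no separate observation. Fn1 was nearest to Fbn1 (r = 0.97), which encodes the microfibril protein fibrillin-1, and Dip2a (r = 0.94). Postn was nearest to Plce1 and to Fmod, which encodes the collagen-binding fibromodulin (both r = 0.98), and Cthrc1 to Golga5 (r = 0.99) and Qpct (r = 0.96). Spp1 was nearest to the BMP receptor gene Bmpr1b (r = 0.97) and Ptgs1 (r = 0.97), which encodes cyclooxygenase-1. After removal of group means its r was 0.81 with Bmpr1b and 0.67 with Ptgs1. The others paired as Tnc with Zswim4 and Eif4g3, Thbs1 with Chd3 and Rgs16, Thbs2 with Gpam and Igfbp5, and Spon2 with Boc and Kdelr1, at r of 0.96 to 0.98. With 9 libraries such values were more common for some members than for others. The genes with an r above 0.9 numbered from 3, for Ccn2, to 192, for Postn, of the 10072 searched.

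Promoter sequence is shown for Spp1 and Tnc, the members past the threshold, and for Ccn1. RefSeq promoters on GRCm38.p6 were matched by symbol for 5 of the 10 members (Tnc, Postn, Thbs2, Spp1 and Ccn1), with 8 start sites, and the 250 bases before each start were searched on both strands. The motifs were GATA with A or T before it and A or G after it, present in 26.5% of 32851 promoter windows, T-box (AGGTGT), in 11.8%, and TEAD (CATTCC), in 12.6%. A GATA motif was found at 1 of the 8 member starts, Spp1 start 2, TEAD at 1, Ccn1, and T-box at 0. Capitals mark the motif; Spp1 start 2 has TGATAA on the minus strand 184 to 179 bases before the start and AGATAG on the plus strand 70 to 65 bases before it, and Ccn1 has CATTCC 103 to 98 bases before its start. The windows are Spp1 start 1 at chr5:104434861-104435110 and start 2 at chr5:104435942-104436191 on the plus strand, Tnc start 1 at chr4:64047016-64047265 and Ccn1 at chr3:145649986-145650235 on the minus strand. None of their bases lies in an annotated exon of the same gene, and exons of other genes were not checked. The start 2 window of Spp1 lies inside the annotated gene (chr5:104435118-104441050), past its 5′ end. The window of start 1, which lies before the gene, has no GATA motif. A match is a description of letters, and binding at these sites was not measured.
Spp1 start 1: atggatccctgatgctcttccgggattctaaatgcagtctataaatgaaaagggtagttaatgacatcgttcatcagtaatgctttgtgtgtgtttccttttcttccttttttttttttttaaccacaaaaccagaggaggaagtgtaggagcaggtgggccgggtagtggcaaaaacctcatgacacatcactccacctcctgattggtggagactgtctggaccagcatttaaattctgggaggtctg
Spp1 start 2: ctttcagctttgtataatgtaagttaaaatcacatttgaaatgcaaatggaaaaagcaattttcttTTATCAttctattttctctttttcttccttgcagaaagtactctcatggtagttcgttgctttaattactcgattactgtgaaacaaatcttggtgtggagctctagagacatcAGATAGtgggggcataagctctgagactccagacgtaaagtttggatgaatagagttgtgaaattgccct
Tnc start 1: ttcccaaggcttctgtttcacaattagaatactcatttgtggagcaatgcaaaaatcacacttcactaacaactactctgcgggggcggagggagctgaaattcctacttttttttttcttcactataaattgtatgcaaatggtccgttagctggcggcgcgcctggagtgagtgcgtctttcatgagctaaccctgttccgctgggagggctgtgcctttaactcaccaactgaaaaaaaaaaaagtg
Ccn1: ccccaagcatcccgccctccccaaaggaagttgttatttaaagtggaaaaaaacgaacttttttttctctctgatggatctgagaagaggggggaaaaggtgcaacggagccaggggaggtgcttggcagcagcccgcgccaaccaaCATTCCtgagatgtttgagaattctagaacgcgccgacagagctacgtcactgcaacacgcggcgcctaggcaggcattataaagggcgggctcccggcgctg

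Of 17 other matricellular genes listed, 12 were tested, and 0 passed in either knockdown against control. At an unadjusted p of 0.05 there were 2 in Gata4 KD and 3 in Tbx20 KD (8.54% and 2.69% of all genes). In DESeq2, the exact test and limma-voom 1, 1 and 0 passed in Gata4 KD and 0, 0 and 0 in Tbx20 KD. Over all genes DESeq2 called 273 and the exact test 250 in Gata4 KD, and 10 and 8 in Tbx20 KD. Between the knockdowns 2 passed in the main fit (1.44% of all genes). Smoc1, a calcium-binding SPARC relative, was higher in Gata4 KD and Ccn4 (WISP1), a further CCN gene, was lower. Smoc1 was at 26.0 ± 3.11 CPM in Gata4 KD and 16.2 ± 1.54 CPM in Tbx20 KD (SD, n = 3; log2 fold change 0.69, SE 0.11, adjusted p = 0.0392), a call lost without Gata4 KD a (adjusted p = 0.159) or Tbx20 KD a (0.0912), b (0.125) or c (0.173), with 1.09e-05 as the lowest over all alternatives. Ccn4 stood at 288, 363 and 278.5 CPM in control, at 236, 213 and 264 CPM in Gata4 KD and at 409, 448 and 446 CPM in Tbx20 KD. The 3 groups did not overlap, in contrast to Ccn1 and Ccn2, and the log2 fold change between the knockdowns was -0.86 (SE 0.09, adjusted p = 0.00754). Its call was lost without Gata4 KD a (adjusted p = 0.0801), Tbx20 KD b (0.0552) or Tbx20 KD c (0.0644), and over all alternatives its adjusted p ran from 1.11e-16 to 0.0801. The median log2 fold change of the 12 genes was -0.04, against -0.01 over all genes.

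Of 17 receptors and co-receptors of these proteins, all tested, 11 had a higher and 6 a lower mean in Gata4 KD against control, with a median log2 fold change of 0.16 against -0.02 over all genes. There 4 had an unadjusted p under 0.05 (8.54% of all genes), and 1 passed the adjusted threshold (0.38% of all genes) and fell. DESeq2, the exact test and limma-voom also called 1 each, while DESeq2 called 273 and the exact test 250 of the 14468 genes tested. Between the knockdowns 7 had an unadjusted p under 0.05 (16.7% of all genes) and 1 passed (1.44% of all genes). There 5 passed in DESeq2 and 5 in the exact test, where 761 and 729 of the 14477 genes tested did, and 2 in limma-voom. The gene that fell was Itga4, the alpha-4 integrin subunit that binds fibronectin and osteopontin. Itga4 stood at 87.7, 108 and 75.7 CPM in control, at 46.6, 53.9 and 50.8 CPM in Gata4 KD and at 89.4, 79.2 and 83.9 CPM in Tbx20 KD. All Gata4 KD libraries lay below all others. The log2 fold change was -0.85 (SE 0.13, adjusted p = 0.0449) against control, lost without control a (adjusted p = 0.204) or Gata4 KD a (0.279), b (0.152) or c (0.101), with a range of 1.41e-06 to 0.279 over all alternatives. Between the knockdowns it was -0.74 (SE 0.07, adjusted p = 0.00545) and passed with each library left out in turn. Itgb1, the beta-1 subunit with which it pairs, had 1345 ± 205 CPM in control and 1656 ± 59.2 CPM in Gata4 KD (SD, n = 3; log2 fold change 0.30, SE 0.11, adjusted p = 0.482).

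Of 22 further YAP and TEAD target genes, beside Ccn1 and Ccn2, 1 fell in Gata4 KD against control, 1 was higher between the knockdowns, and 0 passed in Tbx20 KD (2 at an unadjusted p of 0.05, where 2.69% of all genes were, and 0 in DESeq2, the exact test and limma-voom). In Gata4 KD against control 5 had an unadjusted p under 0.05 (8.54% of all genes), and 3 passed in DESeq2, 3 in the exact test and 1 in limma-voom. DESeq2 called 273 and the exact test 250 of the 14468 genes tested there. Between the knockdowns 10 had an unadjusted p under 0.05 (16.7% of all genes). There 7 passed in DESeq2 and 6 in the exact test, where 761 and 729 of the 14477 genes tested did, and 1 in limma-voom. In the main fit the shares of all genes past the threshold were 0.38% in Gata4 KD against control and 1.44% between the knockdowns. Ankrd1, a stress-induced ankyrin repeat protein of heart muscle and fibroblasts, went from 1364 ± 67.7 CPM in control to 801 ± 91.7 CPM in Gata4 KD (SD, n = 3; log2 fold change -0.77, SE 0.10, adjusted p = 0.0273). That call was lost without control a (adjusted p = 0.184), control c (0.0990), Gata4 KD a (0.129) or Gata4 KD b (0.140), and its adjusted p ran from 1.01e-08 to 0.213 over all alternatives. Crim1, a membrane protein that binds BMPs, was at 378 ± 32.2 CPM in Gata4 KD and 234 ± 23.9 CPM in Tbx20 KD (SD, n = 3; log2 fold change 0.70, SE 0.09, adjusted p = 0.0192). That call was lost without Gata4 KD a (adjusted p = 0.106), Gata4 KD b (0.0750), Tbx20 KD b (0.103) or Tbx20 KD c (0.120), with 5.31e-10 as the lowest over all alternatives. The list's median log2 fold change in Gata4 KD against control was 0.03, against -0.02 over all genes.

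Of 15 TGF-beta response genes 0 passed in either knockdown against control. At an unadjusted p of 0.05 there was 1 in each (8.54% of all genes in Gata4 KD and 2.69% in Tbx20 KD). DESeq2 and the exact test called 1 each in Gata4 KD and 0 in Tbx20 KD, and limma-voom 0 in both. Between the knockdowns 1 passed, where 1.44% of all genes did. It was the cytokine gene Il11, higher in Gata4 KD and likewise singled out by the study on these libraries. Il11 stood at 4.56, 2.46 and 4.60 CPM in control, at 15.9, 17.4 and 9.22 CPM in Gata4 KD and at 3.06, 1.79 and 1.71 CPM in Tbx20 KD. As for Spp1, Gata4 KD c was the lowest of its group and still above all controls. The log2 fold change between the knockdowns was 2.68 (SE 0.31, adjusted p = 0.0115), lost without Gata4 KD a (adjusted p = 0.0801), Tbx20 KD b (0.0871) or Tbx20 KD c (0.0912; lowest over all alternatives 4.90e-18), and against control it was 1.86 (SE 0.30, adjusted p = 0.0519). Of 15 myofibroblast genes 0 passed in any comparison, with 5, 1 and 5 at an unadjusted p of 0.05 in Gata4 KD against control, Tbx20 KD against control and between the knockdowns, where the shares over all genes were 8.54%, 2.69% and 16.7%. DESeq2 and the exact test each called 1, 0 and 3 of them, and limma-voom 0, 0 and 0. Over all genes DESeq2 called 273, 10 and 761 and the exact test 250, 8 and 729. In Gata4 KD against control 10 of the 15 had a higher and 5 a lower mean. Cnn1, a contractile protein gene and first by p, was at 7.65 ± 1.25 CPM in control and 12.2 ± 1.58 CPM in Gata4 KD (SD, n = 3, log2 fold change 0.67, SE 0.16, adjusted p = 0.190). The collagen gene Col1a1, second by p, went the other way, from 3996 ± 43.1 CPM to 3142 ± 501 CPM (log2 fold change -0.35, SE 0.12, adjusted p = 0.423).

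Markers of other cells are given as measured. Of 9 mesothelial and epicardial markers with a row 5 had a mean above 1 CPM, and their summed level was 27.4 to 50.9 CPM in control, 11.1 to 20.4 CPM in Gata4 KD and 29.3 to 46.1 CPM in Tbx20 KD. Most of that difference lay in Lrrn4, which fell from 24.7 ± 8.25 CPM in control to 2.38 ± 0.31 CPM in Gata4 KD (SD, n = 3; log2 fold change -3.38, SE 0.27, adjusted p = 0.00272). Of the 7 tested, 3 had a higher and 4 a lower mean in Gata4 KD than in control. DESeq2 and the exact test called 3 each, against 273 and 250 of the 14468 genes tested. At an unadjusted p of 0.05 there were 4 (8.54% of all genes). Besides Lrrn4 these 4 were Upk1b (log2 fold change -1.16, adjusted p = 0.201), Upk3b (-1.51, adjusted p = 0.247) and Bnc1 (0.93, adjusted p = 0.344). Msln stood at 0 to 0.32 CPM and Wt1 at 0.52 to 1.14 CPM over the 9 libraries. Of 9 endothelial markers tested 1 passed between the knockdowns, where 1.44% of all genes did. It was the VEGF receptor gene Kdr, at 5.57 ± 0.62 CPM in Gata4 KD and 2.98 ± 0.28 CPM in Tbx20 KD (SD, n = 3). The log2 fold change was 0.90 (SE 0.13, adjusted p = 0.0258). With each library left out, that call was kept only without Gata4 KD c (adjusted p = 0.0144 to 0.142). Its lowest adjusted p over all alternatives was 9.07e-06. The summed level of 10 endothelial markers overlapped between the groups (41.4 to 61.1 CPM in control, 42.2 to 61.4 CPM in Gata4 KD and 45.9 to 58.0 CPM in Tbx20 KD), as did that of 8 smooth muscle and pericyte markers (86.9 to 94.2, 78.2 to 98.5 and 86.0 to 95.2 CPM). The summed level of the fibroblast markers was 14340 to 16338 CPM in control, 10900 to 15089 CPM in Gata4 KD and 14083 to 17069 CPM in Tbx20 KD. Their part in the results for Spp1, Tnc and the other members was not tested.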

How the data were processed

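RNA sequencing of 9 libraries of cultured mouse cardiac fibroblasts, in 3 groups of 3 set by the guide RNA in the labels, gave 1 table of the whole series. The authors trimmed 75 base single-end reads by quality, aligned them with Bowtie2 inside RSEM and deposited expected counts per gene as whole numbers, without normalization. Their methods name GRCm38 and the submitters' processing notes list mm9, Bowtie and RSEM; since counts are per gene ID, this affects no value here, and coordinates are those of GENCODE M21 on GRCm38. RSEM divides reads that match several genes, so sharing of sequence was checked for each member. Symbols and exon lengths were taken from GENCODE M21, and tested genes without an exon length there have no RPKM. 

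The members and gene lists were chosen with earlier results of these data known. Each comparison was fitted over all genes on its 6 libraries, using edgeR 4.0.16 under R 4.3.3 (filterByExpr, TMM, glmQLFit and glmQLFTest), with Benjamini-Hochberg adjustment over all genes tested, a threshold of 0.05 and no covariate. Both comparisons with control share its 3 libraries. With 3 libraries against 3, the smallest exact permutation p for 1 gene alone is 0.1, so genes were tested only in fits over all genes. The procedure was also run on counts simulated gene by gene from fitted dispersions. Such counts hold no variation that genes of a library share, and the outcome is not used as support here. Correlations used log2 CPM with a prior count of 2. Named were all members, both targets, listed genes past the threshold or otherwise up to 3 of the smallest p (a selection of these is printed), and the 2 genes most like each member.

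Alternatives were DESeq2 1.42.0, library size alone, no filter, CPM above 1 in 2 libraries, edgeR's exact test, limma-voom (limma 3.58.1), all 9 libraries in one fit, a replicate block and each library left out. Replicate letters did not pair the libraries: same-lettered deviations correlated at -0.17 to 0.26 over genes.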

Additional observations from a re-analysis of the deposited data

How the results depend on the processing

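When the members' log2 fold changes were recomputed under the alternatives, 381 values kept direction and side of the threshold, 10 passed newly, 13 no longer passed and 16 reversed, none of the latter past the threshold; except where said, the cause was not tested. In Gata4 KD against control the members past the threshold numbered 1, and 3 in DESeq2, 2 with no filter on low counts, 2 in the exact test and 0 to 2 with 1 library left out; the genes numbered 55, and 273, 121, 250, 148 with all 9 libraries in one fit and 6 (without control a) to 189 (without control b). In Tbx20 KD against control 0 members passed under any alternative, and the 1 gene became 10 in DESeq2, 2 with no filter, 8 in the exact test and 1 to 5 with 1 library left out. Between the knockdowns the members numbered 2, and 4 in DESeq2, 3 with no filter, 3 in the exact test and 0 to 3 with 1 library left out; the genes numbered 208, and 761, 324 with no filter, 729 in the exact test and 22 (without Gata4 KD a) to 801 (without Gata4 KD c).

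With the replicate block, 0 members and 5 genes passed in Gata4 KD against control, 2 genes in Tbx20 KD against control, and 1 member (Spp1) and 101 genes between the knockdowns; Spp1 against control had an adjusted p of 0.220 and Tnc between the knockdowns 0.0574. The libraries share only a letter, and the block leaves fewer degrees of freedom.

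Reversals were small. In Tbx20 KD against control, library size alone gave log2 fold changes of 0.009 for Thbs2 and 0.002 for Fn1, and no filter 0.005 for Thbs2. With 1 library left out the range there was -0.164 to 0.101 for Postn, -0.091 to 0.12 for Thbs2, -0.077 to 0.064 for Fn1, -0.324 to 0.014 for Ccn1, -0.165 to 0.038 for Ccn2 and -0.228 to 0.092 for Cthrc1, and in Gata4 KD against control it was -0.05 to 0.215 for Ccn1. Each member had over 1000 counts in every library.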

Other observations

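Mmp13, which encodes a collagenase that cuts fibrillar collagen, was the 1 gene past the threshold in Tbx20 KD against control, and was looked at after its values were seen. It stood at 5.42, 4.18 and 4.63 CPM in control a, b and c, at 4.86, 3.11 and 3.08 CPM in Gata4 KD and at 17.9, 18.6 and 17.5 CPM in Tbx20 KD. The Tbx20 KD libraries did not overlap with the others, and the log2 fold change against control was 1.93 (SE 0.12, adjusted p = 0.00166, edgeR's quasi-likelihood test). It passed with each of the 6 libraries left out in turn, with adjusted p from 0.00184 to 0.0313.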
